A study of Mus musculus with 19 samples.

Results

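The genes described here are 4 ligands and 4 receptors of the fibroblast growth factor (FGF) family, Fgf4, Fgf5, Fgf15, Fgf17, Fgfr1, Fgfr2, Fgfr3 and Fgfr4, each taken as the protein coding gene of that name among the 55416 genes counted. They were measured by RNA sequencing in 19 mouse embryonic stem cell (mESC) lines, and the question was how lines grown from sister blastomeres of one embryo differ from each other and from those of other embryos. Every line descended from 1 blastomere of an 8-cell embryo, and each line gave 1 library. Both parents of the embryos were B6CBAF1/J mice, so the embryos were F2 and differed from each other in genotype, which sister lines shared. Embryo 3 yielded 7 lines (3.1 to 3.7), embryo 2 yielded 7 (2.1 to 2.7) and embryo 1 yielded 5 (1.1 to 1.5). Lines of all embryos shared the same culture, on HFF-1 feeder cells, which are human foreskin fibroblasts that had been stopped from dividing with mitomycin C, in serum replacement medium with leukemia inhibitory factor, the MEK inhibitor PD0325901 and the TGFβ inhibitor SB431542, with adrenocorticotropic hormone added at the start, so that every line grew with an inhibitor of the kinase step below the FGF receptors. Before RNA was extracted, feeder cells were taken out by letting them stick to gelatin.

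The study sorted the same 19 libraries into groups I and II by their most variable genes after correction for embryo. Group I holds 11 lines (3.4, 3.5, 3.6, 3.7, 2.3, 2.4, 2.5, 2.6, 1.1, 1.3 and 1.4) and group II holds 8 (3.1, 3.2, 3.3, 2.1, 2.2, 2.7, 1.2 and 1.5). The groups are not in the sample labels and were read from the study's plots, and line 2.2, which lay outside both clusters, is placed in group II by its gene network. Because the groups were drawn from these libraries, a p for group I against group II is not independent evidence of a difference. Of the 8 genes, Fgfr2 (rank 237) and Fgf5 (rank 385) were among the 500 most variable genes after the correction, so for these 2 genes the groups are themselves drawn in part from the values compared. Fgf5, Fgf15, Fgf17, Fgfr2 and Fgfr3, 5 of the 8, had a variance over 0.05, the limit for genes in the network that placed line 2.2.

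FGF ligands are secreted, bind heparan sulfate on the cell surface and bring receptor tyrosine kinases together, and the activated receptors pass the signal through adaptor proteins to RAS, MEK and ERK. In the mouse blastocyst, epiblast cells make FGF4, which acts through FGFR1 and FGFR2 and steers inner cells towards primitive endoderm. In mESCs the same ligand prepares cells to leave the naive state, which is why MEK inhibitors are used to hold them there.

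The lines had between 33846569 and 48740941 counts each (median 41942274). All 10 mESC markers listed (among them Pou5f1, Sox2 and Nanog) were detected in every line, with a summed level between 3100 and 5843 CPM, the TMM-scaled counts of a gene relative to the library's total. Some lines carried a shift of a whole chromosome, measured as the median over its genes of log2 CPM minus the median of the sister lines. On chromosomes that carry one of the 8 genes, the largest shifts were those of chromosome 8 in lines 2.2 (0.46), 3.1 (0.36), 1.2 (0.18) and 2.1 (0.15), of chromosome 13 in line 3.2 (0.33) and of chromosome 14 in line 3.6 (-0.45).

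Levels can be set side by side between genes only per transcript length, here as CPM per kb of the canonical transcript. Fgf4 stood highest at 72.9 ± 16.6 CPM per kb (SD, n = 19 lines), followed by Fgfr1 at 20.6 ± 2.89 and Fgfr2 at 5.18 ± 2.48 CPM per kb. Fgf4 was above Fgfr1 and Fgfr1 above Fgfr2 in 19 of 19 lines, and Fgfr2 was above Fgfr3 in 18 of 19. The other 5 genes were low: Fgfr3 had 1.48 ± 0.652, Fgf17 1.09 ± 0.473, Fgf15 1.05 ± 0.63, Fgf5 0.746 ± 0.638 and Fgfr4 0.715 ± 0.258 CPM per kb. Among these the order was loose, since Fgfr3 was above Fgf17 in 13 of 19 lines, Fgf17 above Fgf15 in 10, Fgf15 above Fgf5 in 14 and Fgf5 above Fgfr4 in 9. The lines thus held one abundant ligand and one abundant receptor of the 8, by level per length.

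**Figure D1:**
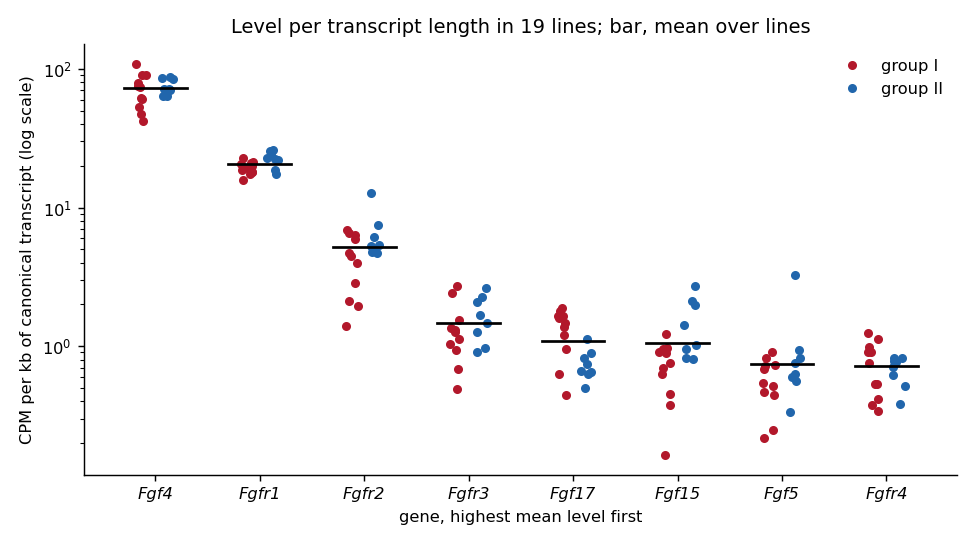
CPM per kb of canonical transcript on a log axis for the 8 genes, highest mean first, with 1 point per line (red, group I; blue, group II) and a bar at the mean of 19 lines. Fgf4 averages 72.9 CPM per kb, and the 5 lowest genes average between 0.715 and 1.48 CPM per kb with overlapping ranges.

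Fgf4, the FGF ligand that epiblast and naive mESCs are known for, lies on chromosome 7 (144415012 to 144418985, plus strand, GRCm39, 3 exons). Its best known control element in the mouse is an enhancer in the 3′ UTR where a SOX and an OCT site stand side by side. This element is shown because Fgf4 is the most abundant of the 8 genes and its level separated embryos 3 and 1. The match lies in exon 3 at chr7:144418127-144418153, 1449 bases after the stop codon, with the SOX letters and the OCT letters in capitals and 3 bases between them.
Fgf4 3′ UTR element: aactcTTTGTTtggATGCTAAtgggat
The pattern searched, TTTGTT, any 3 bases and then ATGCNAA on the forward strand of the transcripts, was found in 19 of 21623 genes (0.0879%) and in 1 of the 8, Fgf4. A match of letters is a description and shows no binding in these lines.

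Promoters are printed for Fgf4, Fgfr3 and Fgfr4, the genes with a call between embryos, from 250 bases before to 50 after the start. They come from RefSeq (build GRCm38.p6) and were placed in GRCm39 by exact match, and 5 of the 8 genes had an entry. Fgf15, Fgf17 and Fgfr1 had none. Capitals mark a TATA box (TATAAA or TATATA, gene strand), a GC box (GGGCGG, both strands) or a CCAAT box (CCAAT, both strands).
Fgf4, chr7:144414873-144415172, plus strand: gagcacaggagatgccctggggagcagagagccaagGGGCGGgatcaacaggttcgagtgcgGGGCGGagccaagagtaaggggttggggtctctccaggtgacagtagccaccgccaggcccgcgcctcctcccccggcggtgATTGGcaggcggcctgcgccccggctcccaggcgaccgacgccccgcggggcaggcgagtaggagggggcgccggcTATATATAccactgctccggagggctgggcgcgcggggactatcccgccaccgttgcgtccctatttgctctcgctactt
Fgfr3, chr5:33878818-33879117, plus strand: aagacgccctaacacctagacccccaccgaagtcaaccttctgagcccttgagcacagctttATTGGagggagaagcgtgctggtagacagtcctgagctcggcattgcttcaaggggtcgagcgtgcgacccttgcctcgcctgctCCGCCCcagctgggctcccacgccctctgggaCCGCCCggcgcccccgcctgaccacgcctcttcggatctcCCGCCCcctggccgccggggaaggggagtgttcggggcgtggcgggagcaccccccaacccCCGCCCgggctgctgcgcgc
Fgfr4, chr13:55300381-55300680, plus strand: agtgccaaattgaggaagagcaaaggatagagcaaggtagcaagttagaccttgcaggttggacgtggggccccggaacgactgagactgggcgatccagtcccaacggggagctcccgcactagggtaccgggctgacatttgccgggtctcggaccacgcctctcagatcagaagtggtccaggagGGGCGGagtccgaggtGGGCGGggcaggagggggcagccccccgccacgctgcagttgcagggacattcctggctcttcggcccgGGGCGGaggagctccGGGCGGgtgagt
Fgf4 had 2 overlapping TATA matches, 2 GC boxes and 1 CCAAT box, Fgfr3 had 4 GC boxes and 1 CCAAT box, and Fgfr4 had 4 GC boxes. A further Fgfr3 promoter in the table (chr5:33879400-33879699, plus strand, 73% G and C) had 2 GC boxes and no CCAAT box and is not printed. Over 32851 promoters of this length the shares with a match were 12.5% for the TATA box, 35.7% for the GC box and 37.4% for the CCAAT box. The 3 printed windows were rich in G and C, at 69.7% for Fgf4, 69.7% for Fgfr3 and 65.3% for Fgfr4, against a median of 52.7% over all promoters.

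Between embryos, the ligand that differed was Fgf4. It was at 134, 196 and 225 CPM (lowest, median and highest) in the 7 lines of embryo 3 and at 167, 237 and 269 CPM in the 7 lines of embryo 2. The 5 lines of embryo 1 had 285, 276, 287, 344 and 226 CPM. Every line of embryo 3 was below every line of embryo 1, while the lines of embryo 2 overlapped both. Between embryos 3 and 1 the log2 fold change was -0.62 (SE 0.13), with an adjusted p of 0.00464 by edgeR's quasi-likelihood test. Its call rests on the fold threshold of 1.5. Leaving out line 1.4, 3.4 or 3.6 gave log2 fold changes of -0.54, -0.57 and -0.55 with adjusted p of 0.0195, 0.0104 and 0.00942, so the p held and the fold did not.

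Fgfr3, a receptor best known for its role in bone growth, showed the other difference of that contrast. Its gene lies on chromosome 5 (33879067 to 33894412, plus strand, 18 exons). Levels were 2.08, 3.98 and 7.02 CPM (lowest, median and highest) in embryo 3 and 4.77, 5.49 and 11.1 CPM in embryo 2, and 10.1, 6.17, 11.5, 6.52 and 9.57 CPM in the 5 lines of embryo 1. In embryo 3 only line 3.2 reached the range of embryo 1. The log2 fold change between embryos 3 and 1 was -1.12 (SE 0.26, adjusted p = 0.00938 by edgeR), and this call was kept under each of the 29 alternatives tried.

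With Fgf4 and Fgfr3, 2 of the 8 genes were called between embryos 3 and 1, both lower in embryo 3, beside 5.45% of the 18878 genes tested (3.2% lower). The remaining 6 genes were not called there, and their 95% intervals ran from the narrow one of Fgfr1 (-0.24 to 0.24) to the wide one of Fgf5 (-1.59 to 0.43). A call needed an adjusted p under 0.05 over all tested genes and a fold over 1.5.

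Fgfr4, a receptor known in liver for its part in bile acid control, was lower in embryo 2. It lies on chromosome 13 (55300453 to 55316572, plus strand, 18 exons). Lines of embryo 2 had 1.13, 1.38 and 2.72 CPM (lowest, median and highest), those of embryo 3 had 1.72, 2.53 and 3.29 CPM, and those of embryo 1 had 4.15, 2.37, 3.73, 3.04 and 2.75 CPM. Lines 2.1 (2.57 CPM) and 2.2 (2.72 CPM) lay inside the range of embryo 1 and the other 5 lines of embryo 2 below it. The log2 fold change between embryos 2 and 1 was -0.90 (SE 0.25, adjusted p = 0.0354 by edgeR), and it was the 1 call among the 8 genes, beside 4.35% of all tested genes (2.25% lower). Without line 1.1, 1.3, 1.4, 2.3, 2.4, 2.5, 2.6 or 2.7 the adjusted p rose to between 0.0548 and 0.097, so leaving out any of these 8 lines ended the call. Without line 1.5, Fgfr2 was called in this contrast (1.13, adjusted p = 0.0182).

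Between embryos 3 and 2, 0 of the 8 genes were called by edgeR, beside 5.63% of all tested genes. Without adjustment 3 of the 8 had p under 0.05, namely Fgfr3 (log2 fold change -0.71, 95% interval -1.21 to -0.22, adjusted p = 0.0694), Fgf4 (-0.34, -0.59 to -0.09, adjusted p = 0.0807) and Fgfr4 (0.50, 0.02 to 0.98, adjusted p = 0.184). DESeq2 called 1, Fgfr3, at an adjusted p of 0.0312. Fgfr3 passed in edgeR as well once line 3.2 was left out (-0.90, adjusted p = 0.0156). A test over all 3 embryos at once called Fgf4 (adjusted p = 0.00781), Fgfr3 (0.0149) and Fgfr4 (0.0476), 3 of 8 beside 9.49% of all tested genes. Fgfr4 lost this call without any 1 of 13 lines (all but 1.2, 1.5, 2.1, 2.2, 3.3 and 3.4, adjusted p of 0.0508 to 0.0941), and Fgf4 fell under the fold threshold without line 1.4, 3.4 or 3.6. Embryo accounted for 54.9% of the variance of log2 CPM of Fgf4, 53.9% of Fgfr3 and 48.6% of Fgfr4, against 0.96% to 19.4% for the other 5 genes. Trophectoderm markers also moved with embryo: Gata3, Krt18 and Cdx2, 3 of 7 listed, were higher in embryo 3 than in embryo 1, beside 2.25% of all tested genes. Cdx2 was near the floor, at 0.752 CPM in embryo 3, against 0.101 CPM in embryo 1, and Eomes had the opposite sign (-0.46) without a call. The summed level of the 7 was 106 to 290 CPM in embryo 3, 131 to 267 CPM in embryo 2 and 79.1 to 180 CPM in embryo 1, and no marker of the list was at 0 in every line. Krt18 was also higher in embryo 2 than in embryo 1, Eomes was lower in embryo 2 than in both other embryos, and the mESC markers Zfp42, Dppa5a and Tdgf1 (3 of 10) were lower in embryo 2 than in embryo 1. Zfp42 was lower in embryo 3 than in embryo 1 as well (-0.64). Of 8 primitive endoderm markers, Dab2 was higher in embryo 3 than in embryo 1 (1.32) and than in embryo 2 (1.03), Gata6 was higher in embryo 3 than in embryo 2 (1.39), and Hnf4a was lower in embryo 2 than in embryo 1 (-1.03). Of all tested genes, 3.2% were called lower in embryo 3 than in embryo 1 and 2.35% higher in embryo 3 than in embryo 2. Between embryos 2 and 1, 2.1% were called higher and 2.25% lower in embryo 2. The part of these marker lists in the embryo differences was not tested. Fewer cells of a type and less RNA per cell cannot be told apart in bulk libraries.

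**Figure D2:**
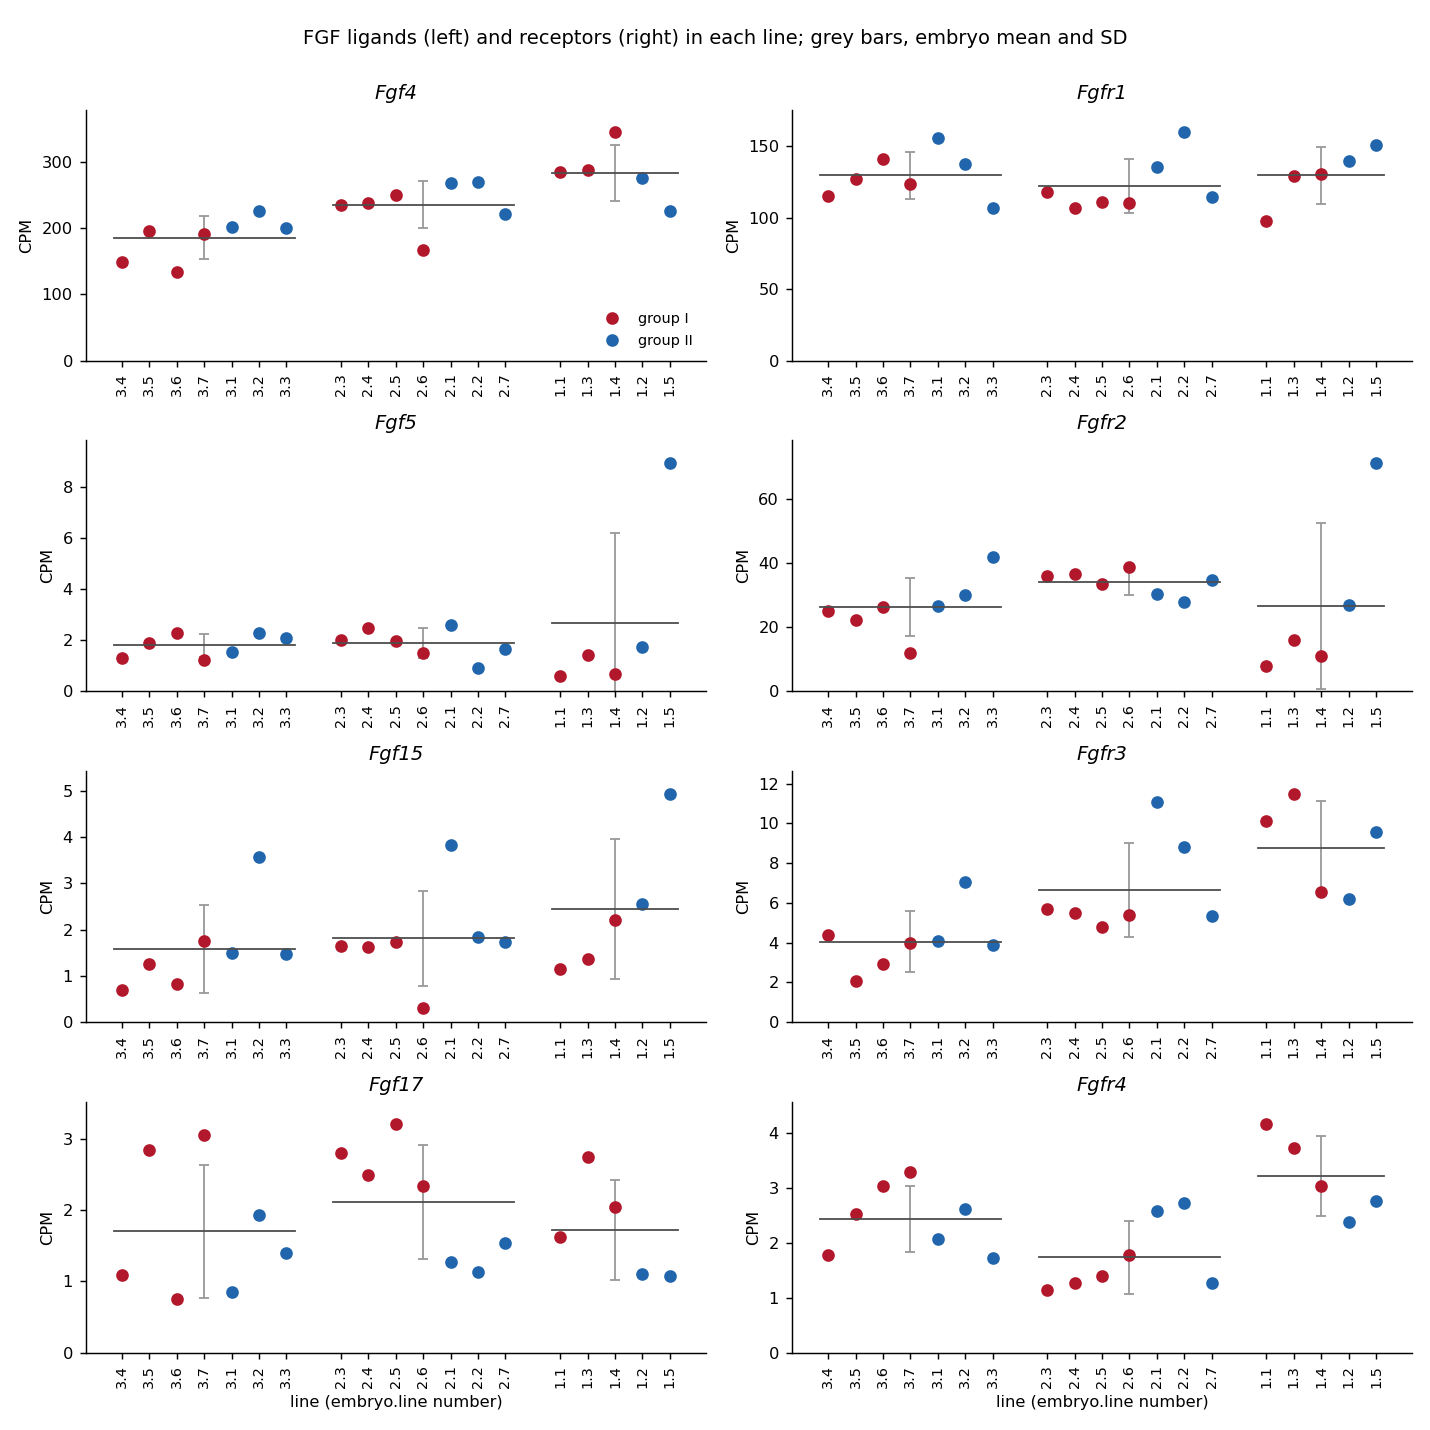
CPM of each gene in each line, ligands in the left column and receptors in the right, with lines of embryo 3, 2 and 1 from left to right and group I (red) left of group II (blue) within an embryo. Grey bars give the mean and SD of each embryo, with the lower SD bar of Fgf5 in embryo 1 ending at the axis; Fgf4 averages 185 CPM in embryo 3, 235 CPM in embryo 2 and 283 CPM in embryo 1, and line 1.5 stands alone for Fgf5 (8.94 CPM) and Fgfr2 (71.3 CPM).

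Between the groups, the genes that moved were the ligands Fgf15 and Fgf17. Fgf15, the mouse counterpart of human FGF19 and known as a gut hormone and as a ligand of the early neural tube, lies on the same chromosome as Fgf4, 31.3 kb after its end (chromosome 7, 144450268 to 144454690, plus strand, 3 exons). Group I lines had 0.296, 1.37 and 2.20 CPM (lowest, median and highest), against 1.47, 2.20 and 4.94 CPM in group II. The lowest value, 12 counts, came from line 2.6 and the highest, 221 counts, from line 1.5. Group I averaged 1.32 ± 0.554 CPM (SD, n = 11) and group II 2.68 ± 1.29 CPM (n = 8), and the ranges overlapped between 1.47 and 2.20 CPM. The log2 fold change was -0.99 (SE 0.29, adjusted p = 0.0165 by edgeR with embryo in the fit). An exact permutation test within embryos, two-sided over 12250 relabelings and unadjusted, gave p = 0.00473.

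Within embryos the direction of Fgf15 was the same, without a call in any one of them. In embryo 3 the group I lines had 0.682, 1.25, 0.823 and 1.75 CPM, against 1.49, 3.58 and 1.47 CPM in group II. In embryo 2 they had 1.64, 1.62, 1.74 and 0.296 CPM, against 3.82, 1.83 and 1.74 CPM in group II. In embryo 1 they had 1.14, 1.37 and 2.20 CPM, against 2.56 and 4.94 CPM in group II. The log2 fold changes were -0.91 in embryo 3, -0.89 in embryo 2 and -1.24 in embryo 1. Without line 3.2 the adjusted p of the pooled difference was 0.0505 (log2 fold change -0.84). Fgf15 overlaps the antisense RNA Gm26793, which drew 85 counts in all lines together against 1511 for Fgf15, and RSEM's default parameters, with which the counts were made, do not use strand, so reads of the pair cannot be told apart where they overlap. The antisense genes at Fgfr1 and Fgfr3 drew 0.0188% and 0.328% as many counts as these receptors.

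Fgf17, a ligand of the FGF8 subfamily known from the midbrain and from gastrulation, differed the other way. It lies on chromosome 14 (70873643 to 70879763, minus strand, 5 exons). Group I lines had 0.758, 2.50 and 3.20 CPM (lowest, median and highest), against 0.852, 1.21 and 1.93 CPM in group II. Of the 11 lines of group I, 1.1 and 3.4 lay within the range of group II, 3.6 below it and the other 8 above it. Group I averaged 2.27 ± 0.809 CPM (SD, n = 11) and group II 1.29 ± 0.332 CPM (n = 8). The log2 fold change was 0.83 (SE 0.24, adjusted p = 0.0162 by edgeR), and the exact permutation test gave an unadjusted p of 0.0149. In embryo 2 the 4 group I lines (2.80, 2.50, 3.20 and 2.34 CPM) were all above the 3 of group II (1.27, 1.14 and 1.53 CPM), and in embryo 1 the 3 of group I (1.62, 2.74 and 2.04 CPM) were above the pair of group II (1.11 and 1.07 CPM). In embryo 3 the group I lines split, with 2.84 CPM in line 3.5 and 3.05 CPM in line 3.7 beside 1.09 CPM in line 3.4 and 0.758 CPM in line 3.6, against 0.852, 1.93 and 1.40 CPM in group II. Line 3.6 is the one in which chromosome 14 as a whole was shifted down. Fgf17 kept its call without each of the 19 lines in turn.

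Fgf15 and Fgf17 were 2 of 8 called, 1 lower and 1 higher in group I, beside 11.9% of the 20333 genes tested (5.66% higher and 6.23% lower). Fibroblast markers moved with the groups as well. Of 16 listed, 10 were higher in group I (among them Col1a1 at 404 ± 93.1 CPM, against 234 ± 91.7 CPM in group II) and 0 were lower. Thy1 had the opposite sign (-0.43) without a call. The summed level of the 16 was 481 to 964 CPM in group I, against 270 to 696 CPM in group II, with no marker at 0 in every line. The feeder cells were human, and the reads had been aligned to the mouse genome alone. Over the 19 lines, centred on the embryo means, a fibroblast score, the mean over Col3a1, Col1a1, Col1a2, Dcn and Lum of log2 CPM, ran with Fgf15 at r = -0.64 (rho = -0.59), with Fgfr3 at r = -0.59 (rho = -0.46) and with Fgf17 at r = 0.52 (rho = 0.51), values that share the same libraries and scaling. With this score as a covariate, Fgf15 had a log2 fold change of -0.35 (adjusted p = 0.834) and Fgf17 one of 0.71 (adjusted p = 0.573), and 0 of all tested genes were called in that fit. Primed epiblast markers were lower in group I for 5 of 8 (Otx2, Pou3f1, Zic2, Sox3 and Lef1) and higher for 0. The summed level of the 8 was 466 to 836 CPM in group I, against 645 to 1251 CPM in group II. T, below 1 CPM on average, had the opposite sign (1.00) without a call. Of 10 mESC markers, Klf4 (0.68) and Tfcp2l1 (0.86) were higher in group I and 0 were lower, with a median of 0.29. The part of any of these marker lists in the differences of Fgf15 and Fgf17 cannot be told apart from the groups.

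**Figure D3:**
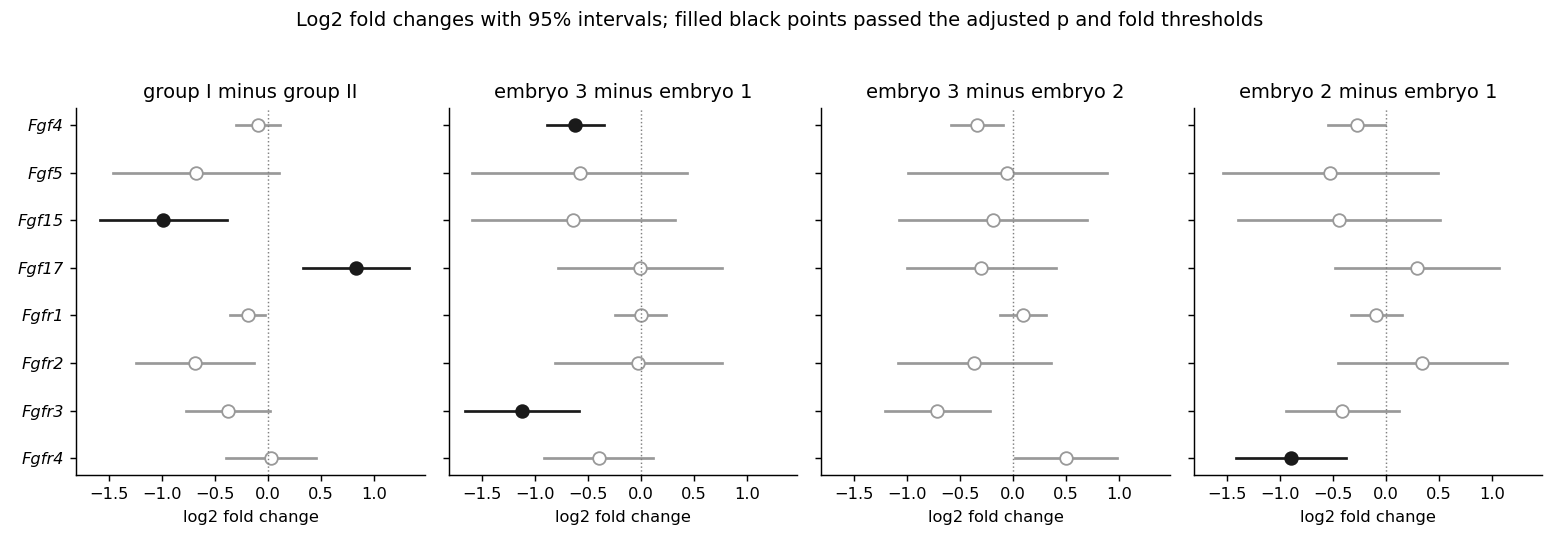
Log2 fold changes of the 8 genes with 95% intervals for group I minus group II and for the 3 pairs of embryos. Filled black points passed both thresholds, which were Fgf15 (-0.99) and Fgf17 (0.83) for the groups, Fgf4 (-0.62) and Fgfr3 (-1.12) between embryos 3 and 1, and Fgfr4 (-0.90) between embryos 2 and 1.

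Among the receptors, none was called between the groups by edgeR over all embryos. Fgfr2, the receptor that marks primitive endoderm precursors and trophectoderm in the blastocyst, lies on chromosome 7 (129763471 to 129868272, minus strand, 18 exons). It had 7.84, 25.1 and 38.9 CPM (lowest, median and highest) in group I, against 26.5, 30.1 and 71.3 CPM in group II. The log2 fold change was -0.69 (95% interval -1.25 to -0.13, adjusted p = 0.0616), with the 3 lines 1.1, 1.4 and 3.7 lowest of all. It passed without line 2.1 (-0.81, adjusted p = 0.0431), without line 2.2 (-0.82, adjusted p = 0.0381) and with no filter on low counts (-0.71, adjusted p = 0.0268).

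Fgfr1, the main FGF receptor of epiblast and mESCs, lies on chromosome 8 (26008745 to 26066824, plus strand, 18 exons) and varied least of the 8. Its levels were 97.4, 118 and 141 CPM (lowest, median and highest) in group I, against 107, 138 and 159 CPM in group II. The log2 fold change was -0.19 (95% interval -0.36 to -0.03, adjusted p = 0.0772). Relative to its sister lines Fgfr1 ran with the shift of chromosome 8 (r = 0.75, rho = 0.61, 19 lines, 720 genes of the chromosome). In line 2.2 Fgfr1 was 0.50 above its sisters and the chromosome 0.46, and in line 3.1 they were 0.31 and 0.36 above. Line 1.1 had the lowest Fgfr1, 0.47 below its sisters, with its chromosome 8 at -0.01. The lines with the largest rise of chromosome 8 (2.2, 3.1, 1.2 and 2.1) are all in group II. Line 3.6 of group I came next (0.10), and lines 1.5, 2.7 and 3.3 of group II had negative shifts. The part of this shift in the group difference of Fgfr1 was not tested. Among 12718 protein coding genes averaging 1 CPM or more, the 3 most like Fgfr1 over the 19 lines were Zfp617 (r = 0.92, rho = 0.86), Scoc (r = 0.90, rho = 0.91) and Chd9 (r = 0.88, rho = 0.78), all on chromosome 8.

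**Figure D4:**
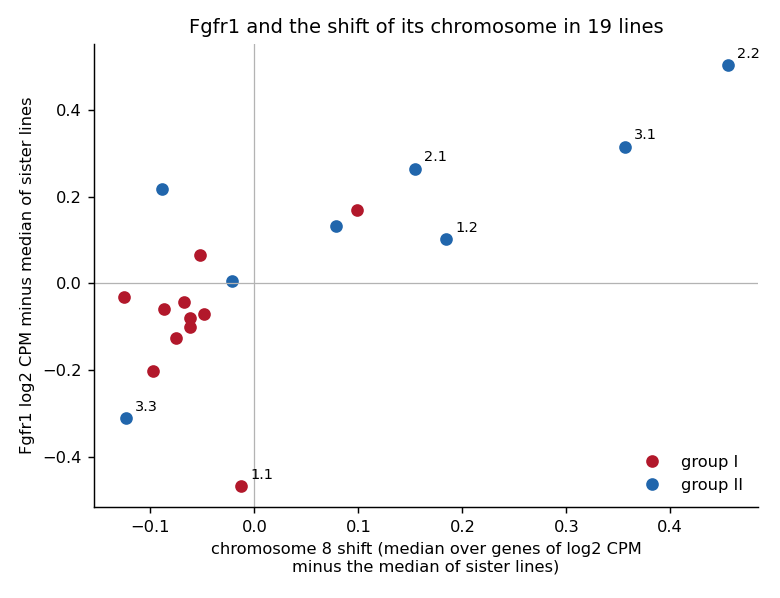
Fgfr1 log2 CPM minus the median of sister lines (vertical) against the shift of chromosome 8 (horizontal, median over 720 genes), 1 point per line, red for group I and blue for group II. Lines 2.2 and 3.1 are highest on both axes, and line 1.1 is low for Fgfr1 with its chromosome near 0.

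Fgfr3, Fgf5, Fgf4 and Fgfr4 were not called between the groups either. Fgfr3 averaged 5.71 ± 2.84 CPM over the 11 lines of group I, against 6.99 ± 2.62 CPM over the 8 of group II, with a log2 fold change of -0.38 (95% interval -0.77 to 0.01, adjusted p = 0.139). Fgf4 averaged 225 ± 64.9 CPM in group I, against 236 ± 30.7 CPM in group II (-0.10, interval -0.31 to 0.11, adjusted p = 0.484). Fgfr4 averaged 2.46 ± 1.05 CPM in group I, against 2.26 ± 0.532 CPM in group II (0.02, interval -0.40 to 0.45, adjusted p = 0.942). The intervals of Fgf4 and Fgfr4 stayed within a fold of 1.5 in either direction, and that of Fgfr3 did not.

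Fgf5, the ligand that marks epiblast after implantation and cells leaving the naive state, lies on chromosome 5 (98401780 to 98424889, plus strand, 3 exons). Its values were 0.597, 1.50 and 2.50 CPM (lowest, median and highest) in group I, against 0.929, 1.92 and 8.94 CPM in group II, and the log2 fold change was -0.68 (95% interval -1.46 to 0.11, adjusted p = 0.188). Line 1.5 held the highest value, 400 counts, with 8.94 CPM beside 0.597 to 1.74 CPM in the other lines of embryo 1. The same line was highest of all 19 for Fgfr2, at 71.3 CPM beside 7.84 to 27 CPM in its sisters, and for Fgf15, and it had the lowest fibroblast score of all (2.96 on the log2 scale, against 5.06 in line 3.5, the highest).

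Asked within each embryo, the group difference of Fgf5 and Fgfr2 passed both thresholds in embryo 1 and not in the others. In embryo 1, Fgf5 had 0.597, 1.42 and 0.681 CPM in group I, against 1.74 and 8.94 CPM in group II, and Fgfr2 had 7.84, 16.1 and 10.9 CPM in group I, against 27 and 71.3 CPM in group II. The log2 fold changes there were -2.55 for Fgf5 (SE 0.53, adjusted p = 0.0139 by edgeR) and -2.07 for Fgfr2 (SE 0.34, adjusted p = 0.0045), 2 of 8 called, both lower in group I, beside 3.63% of all tested genes (2.94% lower). In embryo 3 they were -0.20 (interval -1.13 to 0.73) for Fgf5 and -0.58 (-1.18 to 0.02) for Fgfr2, and in embryo 2 they were 0.22 (-0.72 to 1.16) and 0.23 (-0.37 to 0.84). Lines of embryo 2 held Fgfr2 close together, at 36.0, 36.8, 33.6 and 38.9 CPM in group I, against 30.3, 27.7 and 34.9 CPM in group II. In embryo 3 edgeR called 0 of the 8, beside 5.61% of all tested genes (1.8% higher and 3.8% lower in group I), DESeq2 called 0 and 0 of the 8 reached 0.05 without adjustment. In embryo 2 it called 0 as well, beside 1.01% of all tested genes (0.162% higher and 0.846% lower), DESeq2 called 0 and 4 of the 8 reached 0.05 without adjustment.

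Line 1.5 is among the lines whose library name is out of order, and both calls of embryo 1 rest on it. Without it group II of that embryo is line 1.2 alone, taken to vary like the other lines, and the log2 fold changes were -0.94 for Fgf5 (adjusted p = 0.896) and -1.21 for Fgfr2 (adjusted p = 0.268). Fgf5 also fell short without line 1.4 (-2.38, adjusted p = 0.0567). The test of whether the 3 group differences differ called 0 of the 8 by edgeR, beside 0.0393% of all tested genes, with 3 of the 8 at an unadjusted p under 0.05: Fgfr2 (0.000274), Fgf5 (0.0021) and Fgfr4 (0.0206). DESeq2 called 2 there, Fgf5 (adjusted p = 0.0205) and Fgfr2 (adjusted p = 0.00142). For Fgf15 the p of that test was 0.881 and for Fgf17 it was 0.593.

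**Figure D5:**
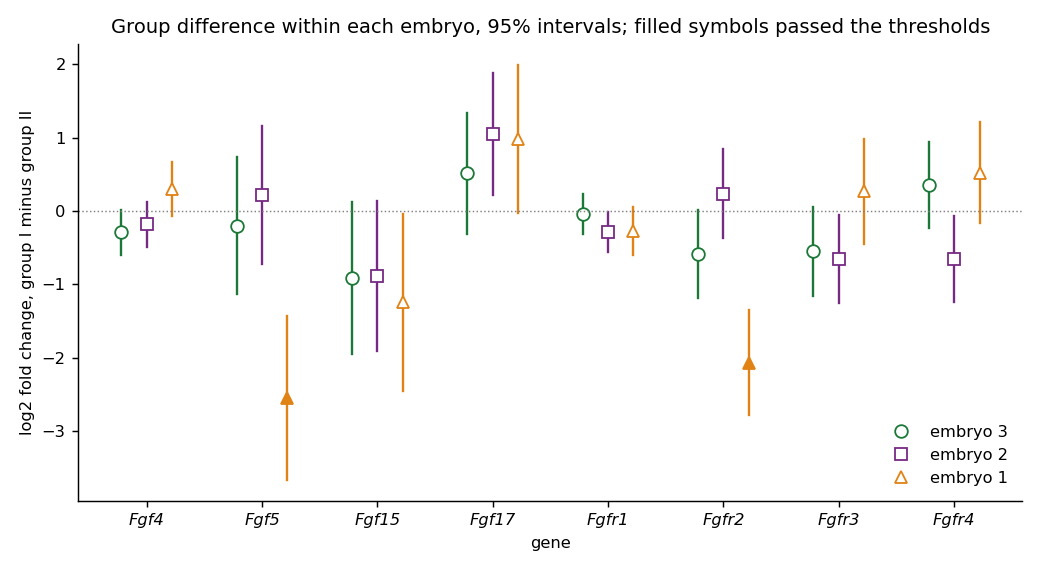
Log2 fold change of group I minus group II within embryo 3 (circles), embryo 2 (squares) and embryo 1 (triangles) with 95% intervals, filled where both thresholds were passed. Fgf5 (-2.55) and Fgfr2 (-2.07) in embryo 1 are the filled symbols, and the 3 values of Fgf15 lie between -1.24 and -0.89.

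Some of the 8 genes varied together over the 19 lines once embryo means were taken off. Of 28 pairs, Fgf5 and Fgfr2 had the highest correlation of log2 CPM (r = 0.87, rho = 0.67, and r = 0.69 without line 1.5). Fgf4 and Fgf15, neighbours on chromosome 7, had r = 0.58 (rho = 0.43), and r = 0.83 without line 1.5, in which Fgf15 was highest and Fgf4 lowest among its sisters. Line 2.6, on the other side, was lowest of embryo 2 for both (167 and 0.296 CPM). Fgfr2 and Fgfr4 ran against each other (r = -0.49, rho = -0.58). These are descriptions, since all genes of a line share 1 library and 1 scaling.

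Other genes followed single members closely. The 3 most like Fgfr2 were Greb1l (r = 0.95, rho = 0.88), Car4 (r = 0.95, rho = 0.87) and Itih5 (r = 0.94, rho = 0.83). For Fgf5 they were Pcnx, Lrp2 and Cyp26a1, a retinoic acid degrading enzyme (r = 0.89, 0.89 and 0.88, and 0.66, 0.67 and 0.64 without line 1.5). Nearest to Fgf4 were Padi2, Thtpa and Ppfia3 (r = 0.88, 0.85 and 0.85), and nearest to Fgf15 were Rassf4, Rnf152 and Adamts9 (0.89, 0.89 and 0.88). Fgf17 was most like Fermt2, Tgif1 and Ctsf (0.85, 0.85 and 0.84), Fgfr3 most like Tbkbp1, Zfp341 and Mknk2 (0.85, 0.82 and 0.81), and Fgfr4 most like Ccdc117, Aifm2 and Acacb (0.88, 0.85 and 0.84).

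Of the other 18 FGF genes, listed here as ligands, 4 averaged at least 1 CPM, all of them low. Fgf11 and Fgf13 among them stay inside the cell, so the list does not hold secreted ligands alone. Fgf11, one of the FGF family members that stay inside the cell, averaged 1.77 ± 0.878 CPM over the 11 lines of group I, against 4.14 ± 2.15 CPM over the 8 of group II, and fell in group I by 1.22 on the log2 scale (SE 0.22, adjusted p = 0.000887 by edgeR). Fgf13, also intracellular, averaged 3.66 CPM, Fgf3, the gene before Fgf4 on chromosome 7, 1.59 CPM and Fgf1 1.30 CPM over the 19 lines, with adjusted p of 0.477, 0.549 and 0.724. Of 13 tested, 1 was higher and 3 were lower in group I, beside 5.66% and 6.23% of all tested genes, with a median log2 fold change of -0.19 beside 0.00 over all tested genes. The other 3 called, named after their values were seen, were below 1 CPM on average: Fgf2 (0.517 ± 0.289 CPM in group I, against 0.234 ± 0.163 CPM in group II), Fgf21 (0.103 ± 0.118, against 0.452 ± 0.219 CPM) and Fgf22 (0.18 ± 0.129, against 0.4 ± 0.177 CPM), the last of which lost its call without any 1 of 13 lines. With at least 1 CPM in 5 lines as the filter, Fgf11 was the 1 ligand of the list called, while Fgf2, Fgf21 and Fgf22 were not tested. Between embryos 0 of 11 tested were called in each pair, beside 5.45% (embryos 3 and 1), 5.63% (3 and 2) and 4.35% (2 and 1) of all tested genes. In the same order 2, 0 and 1 of the 11 reached 0.05 without adjustment, and DESeq2 called 1, 0 and 0 of them.

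Genes for co-receptors and modulators at the cell surface were lower in group I where they were called, 6 of 28 tested and 0 higher, beside 6.23% lower and 5.66% higher of all tested genes, with a median log2 fold change of -0.06. Within embryos, 3 of 28 were lower in group I in embryo 3, 0 in embryo 2 and 6 in embryo 1, with 0 higher. Of all tested genes 3.8%, 0.846% and 2.94% were lower there. The medians of the list were -0.15, 0.00 and -0.33. The heparan sulfate carrying glypicans Gpc6 (1.21 ± 0.685 CPM, n = 11, in group I, against 2.48 ± 0.419 CPM, n = 8, in group II), Gpc3 (33.2 ± 14.7, against 62.7 ± 23.4 CPM) and Gpc2 (7.36 ± 2.01, against 11.9 ± 2.86 CPM) had log2 fold changes of -1.18, -0.94 and -0.70. Hs6st2, a heparan sulfate 6-O-sulfotransferase, had -0.87 (3.11 ± 2.2, against 4.86 ± 1.83 CPM). Fgfbp3 and the sulfatase Sulf1 completed the called ones (-0.86 and -0.62). With an adjusted p under 0.05 by edgeR but a fold under 1.5, Gpc4 and Hs2st1 were higher in group I and Fgfrl1 was lower. Gpc4 had 66.8 ± 18 CPM in group I, against 47.5 ± 10.9 CPM in group II (0.50, adjusted p = 0.0395). The values were 0.26 (adjusted p = 0.0237) for Hs2st1 and -0.55 (adjusted p = 0.00456) for Fgfrl1. Gpc2, Sulf1, Gpc4, Hs2st1 and Fgfrl1 were named after their values were seen. Between embryos, Fgfbp1, a carrier that releases FGFs from the matrix, was lower in embryo 3 (5.56 ± 1.64 CPM, n = 7) and in embryo 2 (4.80 ± 1.17 CPM, n = 7) than in embryo 1 (16.5 ± 6.39 CPM, n = 5), with log2 fold changes of -1.57 and -1.78. It was the 1 gene of 27 tested called in either contrast, beside 5.45% (embryos 3 and 1) and 4.35% (embryos 2 and 1) of all tested genes. Hs6st2 was the 1 of 27 called between embryos 3 and 2 (-1.21, adjusted p = 0.0414 by edgeR), beside 5.63% of all tested genes. Leaving out 1 line ended the call of Hs6st2 for 11 of the lines of these embryos (adjusted p of 0.0527 to 0.092). The call of Sulf1 between the groups ended without any 1 of 9 lines (1.1, 1.3, 1.5, 3.1, 3.2, 3.3, 3.4, 3.5 or 3.7) and that of Fgfbp3 without line 1.5 or 2.1.

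Inside the cell, none of the 20 adaptors and kinases on the path to ERK was called in any of these contrasts by edgeR or DESeq2. Of all tested genes edgeR called 11.9% between the groups, 5.45% between embryos 3 and 1, 5.63% between 3 and 2 and 4.35% between 2 and 1. Between the groups 9 of the 20 had an unadjusted p under 0.05 and 8 an adjusted p under 0.05 with a fold under 1.5, and in the pairs of embryos from 3 to 7 of the 20 had an unadjusted p under 0.05. Of 16 feedback inhibitors and ERK targets, 2 were higher and 1 was lower in group I, beside 5.66% and 6.23% of all tested genes. Spry4, an inhibitor that ERK signalling itself turns on, averaged 62.5 ± 15.5 CPM over the 11 lines of group I, against 28.5 ± 12 CPM over the 8 of group II, a log2 fold change of 1.13 (adjusted p = 0.000856). Etv4, a transcription factor downstream of ERK, averaged 68.8 ± 20.0 CPM in group I, against 29.1 ± 12.8 CPM in group II, with a log2 fold change of 1.27 (adjusted p = 0.00105). Ier3 went the other way (-0.99, adjusted p = 0.0141), at 14.7 ± 14.2 CPM in group I, against 19.9 ± 6.97 CPM in group II. Etv1 (0.48, adjusted p = 0.0124), Dusp6 (0.45, 0.0262) and Spry2 (0.32, 0.0331) were higher in group I by edgeR with a fold under 1.5. They were named after their values were seen. Within embryos the count was 2 of 16 (embryo 3), 3 (embryo 2) and 0 (embryo 1). The shares of all tested genes there were 5.61%, 1.01% and 3.63%. The test of embryo-dependent group differences called 1 of the 16, beside 0.0393% of all tested genes. Between embryos 3 and 1, Ier3 was the 1 of 16 called (-1.61), beside 5.45% of all tested genes. Spred3 (-0.71) and Dusp4 (-0.85) were the 2 called between embryos 3 and 2, beside 5.63%, and Dusp5 (0.98) and Spred3 (0.69) the 2 called between embryos 2 and 1, beside 4.35%. Leaving out 1 line ended the call of Ier3 for line 1.4 (adjusted p = 0.0556), that of Dusp4 for 9 lines (up to 0.0756) and that of Spred3 between embryos 2 and 1 for 12 lines (up to 0.129). With the fibroblast score as a covariate 0 genes of these lists were called between the groups, at log2 fold changes of 0.92 for Spry4 (adjusted p = 0.308), 0.81 for Etv4 (0.38), -0.65 for Gpc2 (0.296), -1.03 for Gpc6 (0.345), -0.37 for Gpc3 (0.694) and -0.45 for Fgf11 (0.648).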

How the data were processed

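RNA of 19 mESC lines was sequenced as stranded poly-A libraries, 1 per line. The authors aligned reads with STAR to GRCm39 and deposited expected counts per gene from RSEM 1.3.0, run with default parameters, with GENCODE annotation. Expected counts were rounded to whole numbers. All 8 genes passed edgeR's default filter, which left 18878 genes for embryos and 20333 for groups. The 8 genes and the gene lists were chosen with earlier results of these data known.

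Counts were scaled by TMM and tested with edgeR 4.0.16 (R 4.3.3), by quasi-likelihood F tests with Benjamini-Hochberg adjustment over all tested genes. Embryos were compared in a model with a term per embryo, and groups I and II in a model with embryo as a block. Calls required both an adjusted p below 0.05 and a change of more than 1.5-fold. CPM values are TMM scaled, and log2 CPM used a prior count of 2. Lines are the replicates, so p-values measure the spread between lines, which within an embryo share that embryo. DESeq2 1.42.0, ComBat-seq (sva 3.50.0), other filters, a replicate block, covariates and omission of lines were tried as alternatives. Simulated data were used to test the fits.

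Genes beyond the 8 were named as up to 4 called genes per list and comparison with a mean of at least 1 CPM, by size of the log2 fold change, and every other FGF ligand with a mean of at least 1 CPM. Genes named outside this rule are marked in the text or are markers. For each of the 8, the 3 protein coding genes most correlated over the embryo-centred lines are named. Positions are those of canonical transcripts.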

Additional observations from a re-analysis of the deposited data

Results flagged for a closer look

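A line was marked where its distance to the nearest other line of its embryo or group, divided by the range, passed Dixon's 95% critical value, which chance does in about 1 in 20 groups. The sets were the lines of each embryo and those of group II, for each of the 8 genes, and group I was not screened. Of 32 sets of lines, 4 were marked. Line 2.6 lay low in embryo 2 for Fgf4 (gap over range 0.591) and for Fgf15 (0.652), among 7 lines. Line 1.5 lay high in group II for Fgf5 (0.551) and for Fgfr2 (0.538), among 8 lines.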

How the results depend on the processing

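None of the 7 called log2 fold changes of the 8 genes changed sign under any alternative, while 17 of the 49 not called did under at least 1. Among these, without line 1.5, Fgf5 was at 0.69 between embryos 3 and 1 (-0.58 with all lines) and at 0.75 between embryos 2 and 1 (-0.52), Fgfr3 between the groups was at 0.08 with the fibroblast score (-0.38 otherwise), and Fgfr2 within embryo 2 was at -0.70 with the replicate block (0.23 otherwise). The calls of the 8 genes changed as follows. Under DESeq2 1 was called between embryos 3 and 2, and 2 in the test of embryo-dependent group differences. With no filter on low counts 0 were called between embryos 2 and 1 (Fgfr4, adjusted p = 0.0633), 2 over all embryos (Fgf4 and Fgfr3), 3 between the groups (with Fgfr2) and 2 in the embryo-dependent test. With group as a covariate 1 was called between embryos 3 and 2. Without lines 1.5 and 2.4, whose library names are numbered out of line order, 1 was called between the groups, Fgf17. Fgf15 was not called there (adjusted p = 0.0522). Without these lines Fgfr2 took the place of Fgfr4 between embryos 2 and 1 and over all embryos. Without lines 2.2, 3.1, 3.2, 3.6 and 3.7, those with the largest chromosome shifts measured (in line 3.7 -0.41 on chromosome 6), 1 was called between the groups, Fgf17. Fgf15 was not called without these lines (adjusted p = 0.0801). With the fibroblast score as a covariate 1 was called between embryos 3 and 1, Fgfr3, while Fgf4 at -0.58 fell under the fold threshold. In that fit 2 were called over all embryos (Fgfr3 and Fgfr4), 0 between the groups and 0 within embryo 1. Within embryo 1 Fgf5 was at -2.07 (-2.55 without the covariate) and Fgfr2 at -1.80 (-2.07). Where neither the lines nor the tested genes changed, the cause of these changes was not tested.

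The line numbers shared by embryos pair no lines by design, and the deviations of 17 same-number pairs correlated at -0.36 to 0.28, over 0.1 in 6. Using that number as a replicate block left 1 of the 8 called between embryos 3 and 1, 0 between embryos 2 and 1, 1 over all embryos and 1 within embryo 1. Between the groups the block gave 2 calls, Fgf17 and Fgfr2 (-1.31, adjusted p = 0.00425), with Fgf15 at -0.80 (adjusted p = 0.195).

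Leaving out each line in turn gave 1 to 2 calls between embryos 3 and 1, 0 to 1 between embryos 3 and 2, 0 to 2 between embryos 2 and 1, 1 to 4 over all embryos, 1 to 3 between the groups, 0 to 2 in the embryo-dependent test and 0 to 2 within embryo 1.

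Over all tested genes, 2417 were called between the groups, but 1557 with at least 1 CPM in 5 lines, 5231 with no fold threshold, 1499 with no embryo block, 1529 with the block by line number, 0 with the fibroblast score and 729 when the 5 lines were left out. The embryo-dependent test called 8 genes by edgeR, 258 by DESeq2, 180 with no filter and 0 with DESeq2's size factors. Between embryos 3 and 1 the count was 1029, but 1547 with no fold threshold, 1896 with group as a covariate, 502 without the 5 lines and 581 with the block. Between embryos 3 and 2 it was 1062, but 1810 with group as a covariate and 362 without the 5 lines. Over all embryos it was 1791, but 3076 and 1055 in these fits. Within embryos 3, 2 and 1 it was 1140, 205 and 738, and ranged from 0 to 1715, 0 to 687 and 22 to 1323 over the alternatives other than leaving out 1 line. Leaving out 1 line gave 242 (line 3.2) to 1516 (3.4) in embryo 3, 6 (2.1) to 893 (2.7) in embryo 2 and 31 (1.5) to 2616 (1.2) in embryo 1, and 0 to 103 (1.2) in the embryo-dependent test.

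Depth limits the low genes most: Fgf15 had 12 to 221 counts per line and Fgf5 21 to 400, against 5858 to 13134 for Fgf4.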

Other observations

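Markers of primitive endoderm, the lineage to which FGF4 steers inner cells of the mouse blastocyst, were low in all lines, with a summed level of 15.1 to 48.6 CPM in group I and 15.8 to 28.2 CPM in group II. Of 8 listed, 3 were higher in group I and 0 were lower by edgeR with both thresholds, beside 5.66% higher and 6.23% lower of all tested genes. Fibroblast markers (10 of 16) were higher in group I as well, and 0 genes were called once the fibroblast score was in the model. Gata6, a transcription factor of that lineage, averaged 2.69 ± 2.10 CPM over the 11 lines of group I, against 1.32 ± 0.433 CPM over the 8 of group II (log2 fold change 0.90, adjusted p = 0.0242). Dab2, an endocytic adaptor, averaged 12.9 ± 7.30 CPM, against 8.16 ± 3.11 CPM (0.61, adjusted p = 0.0166), and the receptor Pdgfra 3.10 ± 1.47 CPM, against 2.04 ± 0.663 CPM (0.61, adjusted p = 0.041). Gata4 had the opposite sign with a fold under 1.5 (-0.56, adjusted p = 0.0274). Hnf4a (-0.48) and Foxa2 (-0.14) were negative as well and Sox7 (0.41) and Sox17 (0.05) positive, none with an adjusted p under 0.05.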
